A study of Danio rerio with 12 samples.

Results

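The genes MCM2, MCM3, MCM4, MCM5, MCM6 and MCM7 encode the 6 subunits of the helicase that unwinds DNA ahead of the replication fork. They were found in the count table by symbol, ignoring case, which gave 7 of 35117 Ensembl gene IDs. MCM6 stands for 2 of these IDs: ENSDARG00000057683, which was counted, and ENSDARG00000033231, which had 0 counts in every tube and is left aside below. The other members are MCM2 (ENSDARG00000102798), MCM3 (ENSDARG00000024204), MCM4 (ENSDARG00000040041), MCM5 (ENSDARG00000019507) and MCM7 (ENSDARG00000101180). All 6 counted IDs were among the 9519 genes that passed the filter on low counts. The symbols are in the capitals of human genes and stand for the zebrafish genes with these IDs.

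In G1 phase the origin recognition complex, with CDC6 and CDT1, loads MCM2 to MCM7 onto DNA as a double ring, a step called licensing. The ring starts to unwind DNA in S phase, once CDC45 and the GINS complex have joined it. The MCM genes are textbook targets of the E2F transcription factors, and their mRNAs are commonly read as a sign of cells preparing for or passing through S phase. Microglia, the macrophages of the brain, divide as they settle the young zebrafish brain.

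The cells came from brains of 3-dpf (days post fertilisation) zebrafish carrying the transgene Tg(mpeg1:DsRedx), whose mpeg1 promoter marks macrophages and microglia and not microglia alone. The 4 groups were mafba mutants, mafbb mutants, fish with the label DMut and siblings, whose genotype is not given further. DMut is a name that the labels do not spell out. The labels do not name the alleles. Each group had 3 tubes. For a tube, 3 cells positive for DsRed were picked by hand after the brains of about 10 embryos had been dissociated, and their poly(A) RNA was amplified by Smart-seq2. The design compares each kind of mutant with siblings, and the values below ask where the helicase genes were expressed and how many of them were found in the same tube. The labels leave unsaid if a genotype's 3 tubes stem from separate dissections, and p-values therefore measure only the spread between these tubes, which may be technical.

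Tubes held 10014888 to 17689266 counts, and between 5100 and 10521 genes were detected in each. The mafbb tubes had the fewest genes, 5100 to 6141, and the largest share of spike-in RNA, 0.662% to 0.798% of all counts against 0.0946% to 0.452% in the other tubes. The rank correlation between tubes of 1 genotype was 0.503 to 0.629 over tested genes, and between genotypes 0.443 to 0.644. All 13 IDs of the microglia marker list were counted, and they took 4.54% to 6.48% of the gene counts in siblings, 1.76% to 5.87% in mafba, 2.05% to 4.19% in mafbb and 0.282% to 0.602% in DMut. The DMut tubes thus stood apart by the summed share of that list, which a few abundant genes dominate. Its most abundant gene, the apolipoprotein gene apoeb, had 0 counts in all 3 of them. Of the 13 IDs, 8 were still at 10 CPM or more in every DMut tube, against 12 or 13 in sibling tubes. The log2 fold change in DMut against siblings was above 0 for 3 of the 13. The 15 IDs of the pan-myeloid list, led by CEBPB, took 0.735% to 1.21% in all 12 tubes. Of the 14 tested, 5 had a log2 fold change above 0 in DMut against siblings. The median of the 14 was -0.78, against 0.07 for all tested genes. Among the lower were several IDs with the symbol MFAP4 and marco, a macrophage scavenger receptor gene. The gene marco was at 0 in DMut and in mafbb replicates 2 and 3, and at 0.0677, 114 and 461 CPM in siblings. One MFAP4 ID (ENSDARG00000090783) had sibling tubes at 657, 374 and 1360 CPM against DMut tubes at 100.3, 0.354 and 229 CPM. Among the higher was LCP1. The genes marco, MFAP4 and LCP1 were named after their values were seen. Levels below are CPM, read counts scaled to a common library size after TMM normalisation, and in such pools fewer cells with a transcript and less of it per cell cannot be told apart.

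At 10 CPM or more, the level taken as expressed, all 6 helicase genes were found together in every DMut tube and in 2 of the 3 mafba tubes, and no tube of siblings or mafbb mutants held more than 3 of them. All 6 members reached it in DMut replicates 1, 2 and 3 and in mafba replicates 2 and 3. In mafba replicate 1 there were 4, MCM2, MCM3, MCM4 and MCM6. Sibling replicates 1, 2 and 3 had 3, 1 and 2 members at this level, and mafbb replicates 1, 2 and 3 had 3, 0 and 2. At least 4 of the 6 were thus expressed in 6 of 12 tubes, which were the 3 mafba and the 3 DMut tubes. At lower levels the split was less sharp, since sibling replicate 1 had 6 members with at least 1 count and 5 with at least 10 counts, and mafbb replicate 1 had 5 and 4.

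**Figure D1:**
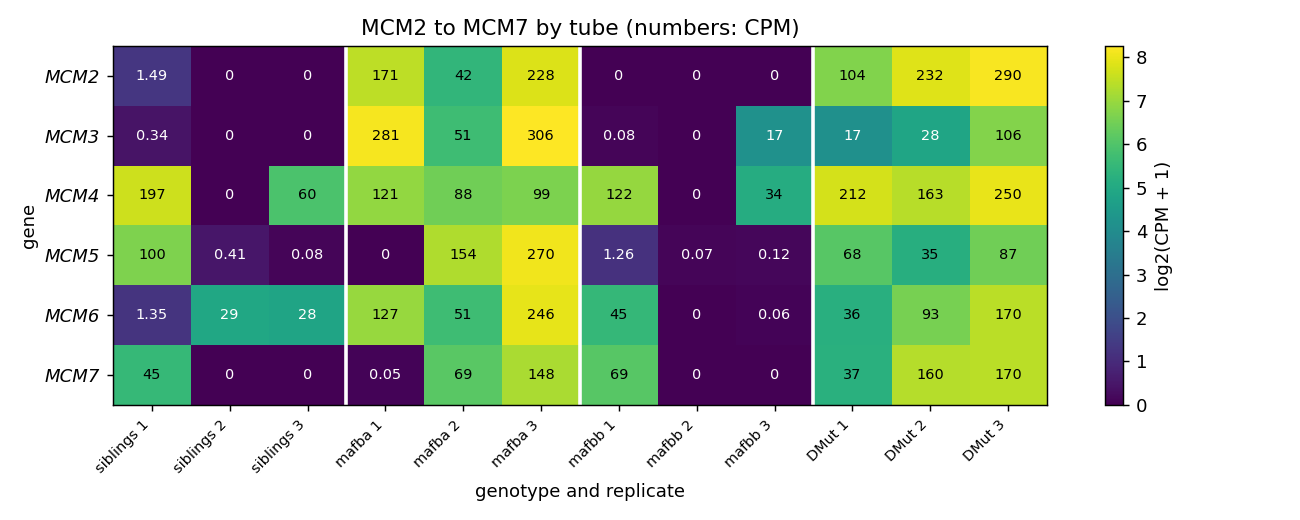
Level of each helicase gene (rows) in each of the 12 tubes (columns, by genotype and replicate); the colour gives log2(CPM + 1) and the printed numbers give CPM. Every DMut cell of the map is at 16.8 CPM or more, whereas the sibling and mafbb columns mix levels of up to 197 CPM with levels at or near 0.

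The members' values were spread over high levels and 0 much as those of other genes were, and the genotypes differed in how many were high. Of the 72 values, 6 genes in 12 tubes, 45 were at 10 CPM or more, 16 were 0 counts, 8 were 1 to 9 counts and 3 lay between. Thus 62.5% were at 10 CPM or more and 22.2% at 0, against 51.3% and 31.9% of the values of all tested genes. In DMut 18 of 18 values were at 10 CPM or more, where 56.3% of the values of all tested genes were. In mafba 16 of 18 were, against 55.8% for all tested genes. In siblings only 6 of 18 reached that level, against 53.5%, and in mafbb 5 of 18, against 39.5%. Genes at 10 CPM in all 3 DMut tubes made up 33.7% of all tested genes, so that criterion alone is not rare for a single gene.

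The number of members in a tube went along with the number of genes found in it, with a Spearman correlation of 0.779 and a Pearson correlation of 0.693 over the 12 tubes. The 5 tubes with all 6 members had 7808 to 10521 genes with a count, and the mafbb tubes, with 0 to 3 members, had 5100 to 6141. Sibling replicates 2 and 3 had 7541 and 7665 genes and 1 and 2 members, and mafba replicate 1 had 7038 genes and 4 members. The part of gene detection in the pattern was not tested.

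**Figure D2:**
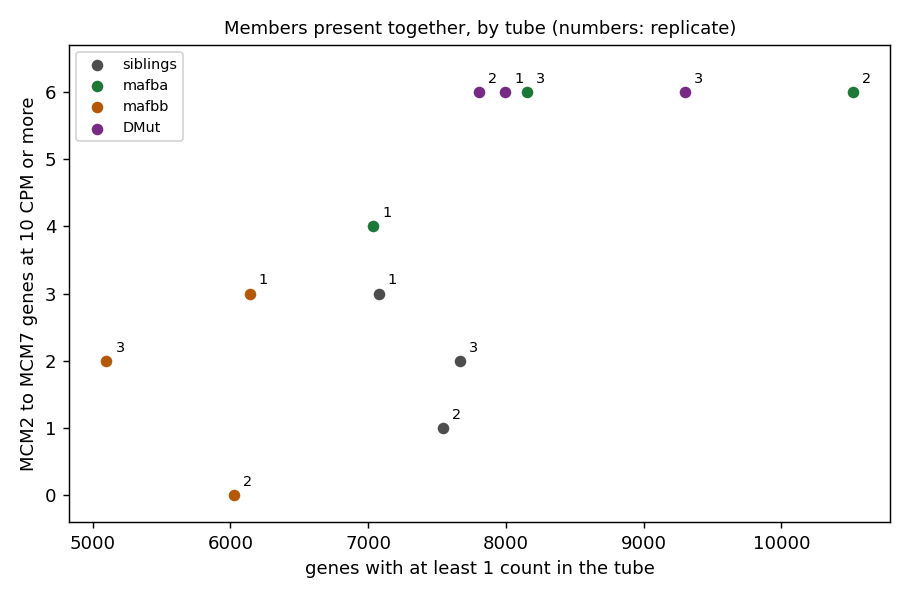
Number of the 6 helicase genes at 10 CPM or more (vertical axis) against the number of detected genes (horizontal axis, at least 1 count), 1 point per tube, coloured by genotype and marked with the replicate. The 5 tubes with all 6 members lie at 7808 genes or more, and the sibling tubes, at 7077 to 7665 genes, hold 1 to 3 members.

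Summed over the 6 genes, helicase transcripts made up 0.0674% ± 0.0199 (SD, n = 3) of gene counts in DMut and 0.0792% ± 0.0423 in mafba. The share was 0.017% ± 0.0198 in siblings and 0.0104% ± 0.0135 in mafbb. By tube the summed counts were 6002, 6043 and 10006 in DMut, 13061, 4995 and 19032 in mafba, 5094, 292 and 1128 in siblings, and 2822, 1 and 879 in mafbb. Every DMut and every mafba share lay above every sibling and mafbb share, although mafba replicate 2 at 0.0397% and sibling replicate 1 at 0.0396% were nearly equal. mafbb replicate 2, with 1 count in 12197938 gene counts, was the only tube almost without these transcripts.

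MCM2 and MCM5 form the gate through which the ring is loaded, as worked out in budding yeast, and the MCM2 protein also binds histones. MCM2 was measured at 1.49, 0 and 0 CPM in sibling replicates 1 to 3, at 171, 42.1 and 228 CPM in mafba, at 0 in all 3 mafbb tubes, and at 104, 232 and 290 CPM in DMut. The counts behind the sibling values were 22, 0 and 0, and the lowest count in a mafba or DMut tube was 461. The 2 pairs of genotypes did not overlap, and within each pair the tubes overlapped. MCM2 was at 10 CPM or more in all 6 mafba and DMut tubes and in none of the 6 sibling and mafbb tubes. Of the 9519 tested genes 5, or 0.0525%, had that pattern, which was picked after the values were seen. The others were SS18, ACSL1, SPRED1 and sb:cb1058.

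MCM5 was more scattered. It was measured at 100, 0.407 and 0.0777 CPM in siblings, at 0, 154 and 270 CPM in mafba, at 1.26, 0.0744 and 0.116 CPM in mafbb, and at 68.3, 34.9 and 86.7 CPM in DMut. The DMut tubes lay within the range of the sibling tubes, since sibling replicate 1 was higher than all of them. The mafbb tubes held 15, 1 and 2 counts and lay below every DMut tube.

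MCM3, whose protein in budding yeast makes the first contact with the loading machinery, was nearly absent from siblings, with 5, 0 and 0 counts, or 0.339, 0 and 0 CPM. It reached 281, 51.3 and 306 CPM in mafba and 16.8, 28 and 106 CPM in DMut. In mafbb it was measured at 0.0839, 0 and 16.9 CPM, so that mafbb replicate 3 with 293 counts stood level with DMut replicate 1 with 212. A paralogue annotated as mcm3l (ENSDARG00000037532) had 439 counts in sibling replicate 3, 118 in DMut replicate 3, 1 in sibling replicate 2 and 0 in the other tubes. The sources do not say how reads shared by the pair were counted, so the split between them is uncertain.

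MCM4, MCM6 and MCM7 form a subcomplex that unwinds DNA by itself in vitro, as known from human and yeast proteins. MCM4 was the member found most widely, at 10 CPM or more in 10 tubes. It was measured at 197, 0 and 60.1 CPM in siblings, 121, 88.2 and 99.1 CPM in mafba, 122, 0 and 33.7 CPM in mafbb, and 212, 163 and 250 CPM in DMut. The DMut tubes lay above every mafba and mafbb tube and overlapped with the siblings.

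MCM6 was measured at 1.35, 29.3 and 27.5 CPM in siblings and at 127, 51.1 and 246 CPM in mafba. It was at 44.6, 0 and 0.0578 CPM in mafbb and at 36.2, 93.2 and 170 CPM in DMut. Every mafba and every DMut tube was above every sibling tube, by a narrow margin in DMut replicate 1.

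MCM7 was measured at 44.9, 0 and 0 CPM in siblings and at 0.0536, 69.2 and 148 CPM in mafba. It was at 68.9, 0 and 0 CPM in mafbb and at 37.3, 160 and 170 CPM in DMut. It was thus at 0 in 2 tubes of siblings and 2 of mafbb, at 1 count in 1 mafba tube and at 37.3 CPM or more in the others, and DMut overlapped with each of the other groups.

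Some members were high and low in the same tubes. MCM5 and MCM7 were both at 10 CPM or more in 6 tubes, both below in 5, and apart in only 1, mafbb replicate 1. MCM2 and MCM3 were likewise together in 6 tubes, both below in 5 and apart in 1, mafbb replicate 3. MCM5 and MCM6 were apart in 5 tubes, the most of the 15 pairs. Sibling replicate 1 held MCM4, MCM5 and MCM7 with at most 22 counts of MCM2, MCM3 or MCM6. mafba replicate 1 was the reverse for those genes but MCM4, with MCM2, MCM3, MCM4 and MCM6 in 2259 to 5236 counts, MCM5 in 0 and MCM7 in 1.

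Tested over all 9519 genes with edgeR, 1 helicase gene was higher in DMut than in siblings, where 0.714% of all tested genes were called, 0.252% as higher. At an unadjusted p under 0.05 there were 2 members and 12.5% of all tested genes. MCM2 rose from 0.497 ± 0.86 to 209 ± 95.5 CPM (n = 3 in each), a log2 fold change of 8.66 ± 1.84 (SE, edgeR adjusted p = 0.00753). MCM3 was at 0.113 ± 0.196 CPM in siblings and 50.3 ± 48.7 CPM in DMut (log2 8.62 ± 2.40, adjusted p = 0.0864). The log2 fold changes of MCM7, MCM6, MCM4 and MCM5 were 3.03 ± 3.09, 2.37 ± 1.78, 1.29 ± 2.19 and 0.92 ± 1.99, with adjusted p of 0.816 or 1. Several rest on sibling replicate 1, without which MCM7 was at 13.61, MCM5 at 7.99, MCM4 at 2.80 and MCM2 at 14.38. In the other sibling tubes MCM2 and MCM7 had 0 counts, so these fitted values depend on the prior count. The median of the 6 was 2.70 where that of all tested genes was 0.07. For MCM2, MCM3 and MCM6 every DMut tube lay above every sibling tube, which held for 9.86% of all tested genes.

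The call of MCM2 was lost without DMut replicate 3 (adjusted p = 0.0553), without robust estimation of the spread (0.0888) and with the compared groups alone (0.098), in a range of 0.000341 to 0.098 over 24 alternatives. MCM3 passed without mafbb replicate 2 (0.0389) or mafbb replicate 3 (0.0189), in a range of 0.0147 to 0.399 over 23 alternatives.

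In mafba mutants the same 3 genes lay above every sibling tube, MCM2, MCM3 and MCM6, and that order held for 5.61% of all tested genes. No member was called by edgeR, nor was any of the 9519 genes (0%), with 2 members and 744 genes (7.82%) at an unadjusted p under 0.05. DESeq2 called 1 member and 583 of all genes with a count, and limma voom 2 members and 37 of the 9519 genes. For MCM3 DESeq2 gave no result here or in DMut against siblings, so the lack of a call by it is no negative result. MCM2 was at 147 ± 95.4 CPM in mafba (log2 8.16 ± 1.80, edgeR adjusted p = 0.148) and MCM3 at 213 ± 140 CPM (log2 10.70 ± 2.59, adjusted p = 0.376). MCM6 was at 141 ± 98.3 CPM against 19.4 ± 15.6 in siblings (log2 2.87 ± 1.81, adjusted p = 0.87). The median log2 fold change of the 6 was 2.57, against 0.11 for all tested genes. MCM2 passed without sibling replicate 1, the tube with its 22 sibling counts (edgeR adjusted p = 0.00753, in a range of 0.00753 to 0.781 over 24 alternatives). Without that tube the log2 fold changes of MCM2, MCM3, MCM5 and MCM7 were 13.87, 14.40, 9.15 and 12.85, and MCM2, MCM3 and MCM7 then had 0 sibling counts. With mafba replicate 2 and mafbb replicate 3 left out together, MCM3 passed (0.0304, in a range of 0.0102 to 0.861).

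In mafbb mutants no member was called by edgeR, DESeq2 or limma voom, and 3 had an unadjusted p under 0.05 in edgeR, where 18.6% of all tested genes did. For MCM3 the lack of a DESeq2 call is again no negative result. Of all tested genes 0.0735% were called. The median log2 fold change of the 6 was -0.55, against -0.20 for all tested genes, and every member overlapped between the groups. Of all tested genes 2.52% lay above and 9.05% below every sibling tube in every mafbb tube. MCM5 had the lowest adjusted p together with MCM2 and MCM3, 0.263, with a log2 fold change of -6.10 ± 2.47 that rests on sibling replicate 1 and turned to 0.97 without it. That of MCM3 was 5.48 ± 2.10 and rests on mafbb replicate 3, without which it was -1.35. MCM2 had 22 counts over the siblings and 0 over mafbb.

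**Figure D3:**
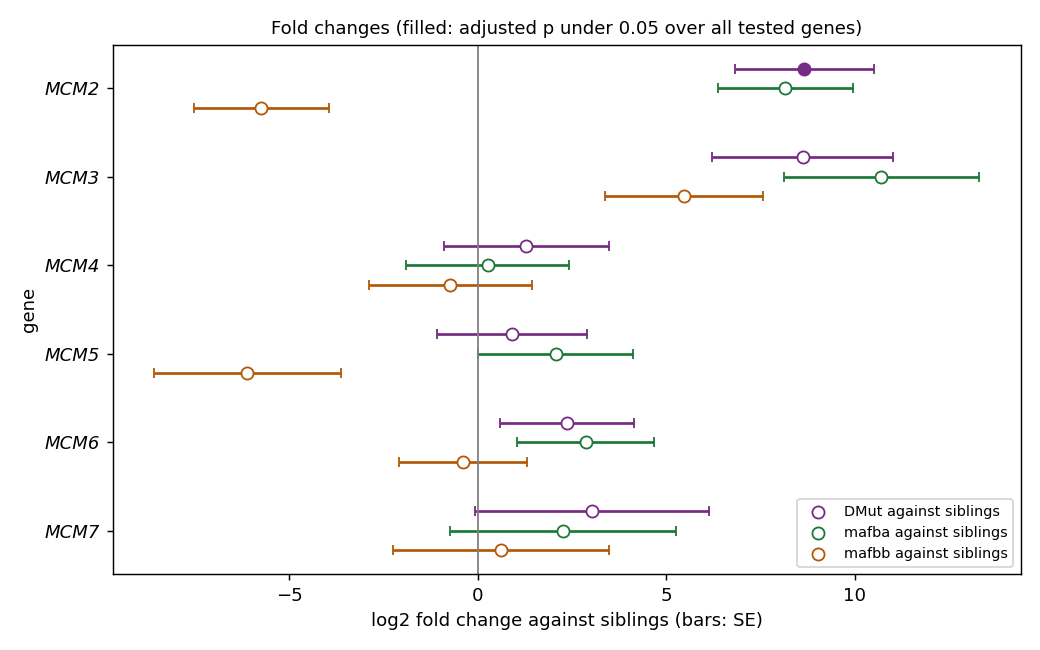
Fitted log2 fold change of each helicase gene (rows) in DMut, mafba and mafbb against siblings, with the SE as bars; a filled point marks an edgeR adjusted p under 0.05 over 9519 genes. MCM2 in DMut, at 8.66, is the only filled point, and all 6 genes lie above 0 in DMut and in mafba; the point of MCM2 in mafbb compares 0 counts with 22 and depends on the prior count of the fit.

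Between the mutants, MCM2 was higher in DMut than in mafbb, and no helicase gene passed the test between DMut and mafba. Against mafba 0 of the 6 were called by edgeR, DESeq2 or limma voom, though for MCM3 the lack of a DESeq2 call is no negative result. None had an unadjusted p under 0.05 in edgeR, where 0.399% of all tested genes were called and 8.03% had such an unadjusted p. The log2 fold changes there ran from -2.08 ± 1.78 for MCM3 to 1.02 ± 2.18 for MCM4, and errors of that size leave differences of several fold in either direction undetectable. MCM4 was the 1 member with every DMut tube above every mafba tube, where 7.39% of all tested genes had that order.

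Against mafbb, MCM2 was higher in DMut, at 209 ± 95.5 CPM against 0 counts (edgeR adjusted p = 0.000242), and 0.725% of all tested genes were called, 0.378% as higher. At an unadjusted p under 0.05 there were 2 members, MCM2 and MCM5, and 20.6% of all tested genes. With a floor of 3 counts over the mafbb tubes, 0.0703 CPM, this is at least 2967-fold higher by counting error alone. It passed in all 24 alternatives, with adjusted p from 1.95e-07 to 0.0128. MCM2, MCM4 and MCM5 lay above every mafbb tube in every DMut tube, and 13.5% of all tested genes did. MCM5 was not called (log2 7.02 ± 2.57, adjusted p = 0.24). The median of the 6 was 2.95, against 0.37 for all tested genes. MCM3 passed without mafbb replicate 3 (adjusted p = 0.0464, in a range of 0.0464 to 0.819) and MCM6 without mafbb replicate 1 (0.0226, in a range of 0.0226 to 0.822). Genes with 0 counts in all 3 mafbb tubes and at least 10 CPM in all 3 DMut tubes made up 2.54% of the tested genes, and MCM2 was 1 of them.

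Reading DMut as carrying both mutations, whether it departed from the sum of both single-mutant differences was tested by the contrast DMut minus mafba minus mafbb plus siblings. No member was called by edgeR, DESeq2 or limma voom, where edgeR called 0.21% of all tested genes. For MCM3 the lack of a DESeq2 call is no negative result here either. MCM2 and MCM3 had an unadjusted p under 0.05, as did 13% of all tested genes (adjusted p = 0.259 and 0.26). They pointed in opposite directions, MCM2 above the sum and MCM3 below it, with -7.56 ± 2.72 on the log2 scale. The value of MCM2 was 6.24 ± 2.13, and 0.50 without sibling replicate 1, which held its 22 sibling counts. That of MCM3 was -0.73 without mafbb replicate 3.

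Several genes of licensing and the fork were counted mainly in DMut tubes, and none passed the edgeR test. Of the genes named here from these lists, only TIMELESS was counted in every mafba tube. Those given below with an adjusted p had the smallest p in DMut against siblings, so they are not typical of their lists. ORC1 and orc2 were instead highest in mafbb replicate 1, at 62.1 and 95.5 CPM. The licensing share of gene counts was also highest in that tube, at 0.0241% against 0.0168% to 0.0224% in DMut. Of the 10 tested licensing genes none was called in DMut against siblings by edgeR, with 4 at an unadjusted p under 0.05, while DESeq2 called 6 and limma voom 3. In that contrast 12.5% of the 9519 tested genes had such an unadjusted p, and limma voom called 370 of the 9519. DESeq2 called 878 of all genes with a count, a larger set, so no share is given for it. These values are the background for the lists that follow too. The median log2 difference of the 10 licensing genes was 5.76 with genes at 0 in 1 group set at their bound, and 9 were above 0. That of all tested genes was 0.06. The low-count filter keeps genes counted in as few as 3 tubes. CDC6, ORC6, GMNN, ORC1, ORC5 and CDT1 passed it only with their DMut tubes, and they are most of this list. The filter thus tilts this median and the tally above 0 towards DMut. CDC6, the loader, was measured at 22.8, 40.4 and 32.1 CPM in DMut, at 0, 0 and 26.5 CPM in mafba, and at 0 in the 6 sibling and mafbb tubes (adjusted p = 0.393). ORC6, a subunit of the origin recognition complex, was at 24, 34.4 and 53.2 CPM in DMut and at most 1.62 CPM in every other tube (adjusted p = 0.393). GMNN, the geminin gene, whose protein holds CDT1 inactive, had counts in the 3 DMut tubes only, at 40, 9.9 and 11.3 CPM (adjusted p = 0.393). ORC3 had 0 counts in DMut and mafbb, and 0, 0.102 and 60 CPM in siblings (adjusted p = 0.393).

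Of 9 tested genes of helicase activation and the fork, again none was called by edgeR in DMut against siblings, with 5 at an unadjusted p under 0.05. DESeq2 called 2 and limma voom 1, and 8 of the 9 were above 0. GINS4, MCM10, CDC7, CDC45, GINS1 and WDHD1 passed the low-count filter only with their DMut tubes. They are most of this list, so its tally is tilted towards DMut too. TIMELESS, a fork protection gene, was at 37.9, 23.8 and 56.2 CPM in mafba, at 0, 22.7 and 18.2 CPM in DMut, and at 0 in siblings and mafbb (adjusted p = 0.393 in DMut). GINS4, a subunit of GINS, was at 12.7, 43.4 and 22.5 CPM in DMut and in 1 other tube, mafba replicate 2, at 20.5 CPM (adjusted p = 0.393). MCM10, an activator of the loaded helicase, was at 0, 27.3 and 28 CPM in DMut and at most 1.04 CPM elsewhere (adjusted p = 0.393). CDC7, the kinase that phosphorylates the loaded ring, was at 25.2, 0.707 and 20.8 CPM in DMut, and at 5.94 CPM in mafba replicate 2, its only other tube (adjusted p = 0.393).

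Genes of DNA synthesis and nucleotide supply were found in all groups. edgeR called 0 of the 26 tested in DMut, with 5 at an unadjusted p under 0.05, and DESeq2 called 5 and limma voom 2. Their median log2 difference was 1.49 in DMut, 1.88 in mafba and 0.77 in mafbb, against 0.06, 0.10 and -0.19 for all tested genes. Single tubes weighed on it: of the 29 IDs, 8, 28 and 13 were at 10 CPM or more in mafba replicates 1 to 3. The numbers were 12, 7 and 6 in siblings, 17, 7 and 8 in mafbb, and 19, 14 and 19 in DMut. POLE, POLD1, CHAF1B and the RRM2 IDs passed the low-count filter only with their DMut tubes, which tilts the DMut median upward. FEN1, the flap endonuclease, had 0 counts in siblings, and 40.6, 45.7 and 0 CPM in mafba, 42.6, 0.0744 and 35.1 CPM in mafbb and 16.1, 24.6 and 61.3 CPM in DMut. The other genes with the smallest p, dhfr, RFC5 and CHAF1B, also had 0 counts in siblings, and all 4 had an adjusted p of 0.393 in DMut. PCNA, the sliding clamp of the polymerases and a common S phase marker, was added after its values were seen. It was counted in all 12 tubes, at 305, 29.7 and 21.1 CPM in siblings, 61.6, 746 and 670 in mafba, 383, 67.7 and 121 in mafbb, and 173, 250 and 474 in DMut. PCNA and the helicase went apart in some tubes, picked after the values were seen. Replicate 2 of mafbb, with 1 helicase count, had 67.7 CPM of PCNA, and mafba replicate 1, with 13061 helicase counts, had 61.6. In others they went together, as in mafba replicate 3, which had 670 CPM of PCNA and the highest helicase share, 0.124%.

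Most genes of the G2 and mitosis list reached 10 CPM in only 1 tube, mafba replicate 2, which also held all 6 helicase genes. The other 4 tubes with all 6 had 0 to 3 of them. mafba replicate 2 had 21 of the 24 IDs of the G2 and mitosis list at 10 CPM or more, and no other tube had more than 4. The list took 0.551% of its gene counts, against 0.00148% and 0.00601% in the other mafba tubes and 0% to 0.00866% in DMut. Its helicase share was 0.0397%, the lowest of the mafba tubes and above every sibling and mafbb tube, while mafba replicate 3 with the highest, 0.124%, had 1 mitosis ID at 10 CPM. mki67, the gene of the proliferation marker Ki-67, was at 319 CPM in mafba replicate 2, 105 in mafbb replicate 1, 28.5 in DMut replicate 1 and at most 0.0682 in the other tubes (adjusted p = 0.396 in DMut). Of the 7 tested mitosis genes edgeR called 0 in DMut against siblings, with 3 at an unadjusted p under 0.05, DESeq2 1 and limma voom 0. CDC20 and ccnb3 had 0 counts in DMut and also in 2 of the 3 sibling tubes each (adjusted p = 0.393). bub1ba was at 28 CPM in DMut replicate 1, 63.3 in mafba replicate 2 and 18.1 and 25.3 in mafbb replicates 1 and 2, and at most 0.0578 in the other tubes (adjusted p = 0.393 in DMut).

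Of 12 tested regulators of the G1 to S step, edgeR called 0 in DMut against siblings, with 2 at an unadjusted p under 0.05, DESeq2 3 and limma voom 1. TFDP1 (ENSDARG00000016304), the dimer partner of E2F factors, was at 33.9, 37.3 and 47.9 CPM in siblings and 39.2, 27.9 and 35.2 in mafba. It was at most 0.149 CPM in the mafbb and DMut tubes (adjusted p = 0.263 and 0.393), while a second ID with this symbol was counted in 10 tubes. e2f3 had 0 counts in mafbb and DMut, and 51.9, 42.7 and 0.0777 CPM in siblings (adjusted p = 0.263 and 0.393). E2F1, the activator most often linked to the MCM genes, was at 9.01, 0 and 1.72 CPM in DMut and at 0, 0.203 and 0 in siblings (adjusted p = 0.862). It was highest in mafbb replicate 1, with 20, 0 and 0 CPM in mafbb and 0.0536, 0 and 15.3 CPM in mafba. e2f6 was absent from siblings and present in 1 mafba, 2 mafbb and 2 DMut tubes (adjusted p = 0.393).

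**Figure D4:**
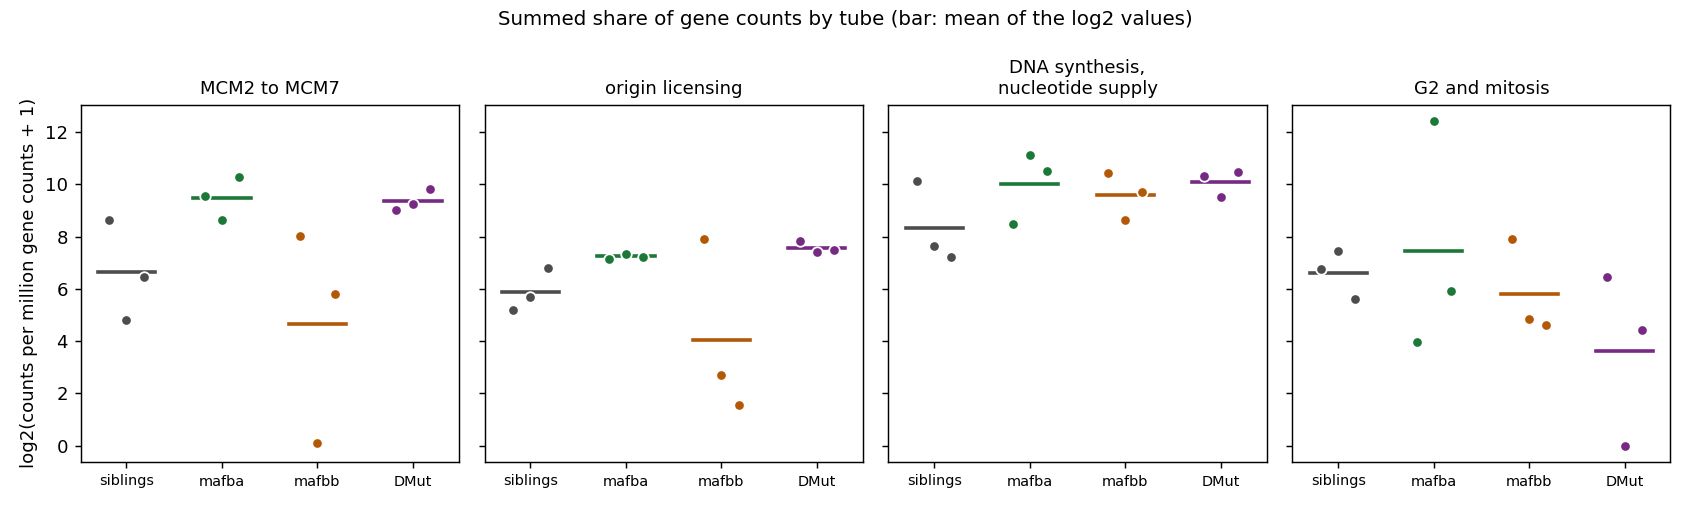
Summed counts scaled to a common total of gene counts (the axis label gives the scale), as log2(value + 1), for the 6 helicase genes and 3 lists of other replication and division genes, 1 point per tube and a bar at the mean of the log2 values. The helicase points of mafba and DMut lie above those of siblings and mafbb, with mafba replicate 2 and sibling replicate 1 almost level, whereas 1 mafba tube, replicate 2, stands alone in the G2 and mitosis panel. The highest point of the origin licensing panel is mafbb replicate 1.

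Markers of other cells moved with the genotypes in part. Of 11 neutrophil IDs, 4 or 5 were at 10 CPM or more in each DMut tube and 1 or 2 in every other tube, and the list took 0.0871% to 0.173% of gene counts in DMut, 0.0223% to 0.0372% in siblings, 0.0187% to 0.0874% in mafba and 0.0268% to 0.066% in mafbb. Its most abundant gene was NCF1, an oxidase subunit gene that macrophages also use, whose sibling tubes had 195, 405 and 281 CPM and DMut tubes 1012, 592 and 1203 CPM (adjusted p = 0.0859). EPX, a granule peroxidase gene named here after its values were seen, was at 411, 212 and 185 CPM in DMut and at 0 in the other 9 tubes. It was the 1 called of 4 tested, and it passed the low-count filter only through the DMut tubes. The tested genes mmp25b and il6r, also named after their values were seen, likewise passed the filter only with their DMut tubes. mmp25b was at 128, 144 and 197 CPM in DMut, at 0, 6.58 and 52.3 CPM in mafba, and at 0 in siblings and mafbb. il6r was at 2.29, 76 and 42.7 CPM in DMut, at 3.84 CPM in mafba replicate 2 and at 0 elsewhere. The gene lyz of the same list was at 1.27 CPM in DMut replicate 1 and at 0 in every other tube. MMP9 and CXCR1 were at 0 in all tubes. Of 9 epidermal and metaphocyte IDs, 4 or 5 were at 10 CPM in each DMut tube and 0 to 2 elsewhere, with 0.0482% to 0.172% of gene counts in DMut, 0.0013% to 0.011% in siblings, 0.00112% to 0.151% in mafba and 0% to 0.00686% in mafbb. Its most abundant gene was cldni, while krt5 and grhl3 were at 0 throughout. The mafba tubes, like the sibling tubes, had 1 or 2 IDs of each of these lists at 10 CPM. mafba replicate 3, with the highest helicase share at 0.124%, also had the highest mafba shares of both lists, 0.0874% and 0.151%. The part of these cells in the DMut and mafba values was not tested.

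Marker lists of neural progenitors, neurons, blood progenitors and erythroid cells took few counts. Of their symbols, 8 of 14 neural progenitor, 7 of 11 neuronal, 8 of 10 haematopoietic and 7 of 10 erythroid ones matched an ID. The 8 neural progenitor and radial glia IDs took at most 0.00268% of gene counts in any tube, led by nes, and SOX2, GFAP, her4.1, her4.2, NEUROD4 and ascl1a were at 0 in all 12. All 7 erythroid IDs, such as hbae1.1, were at 0 in all 12 tubes. Of 8 haematopoietic progenitor IDs, MYB, gata2b, gfi1aa, GFI1B and cd34 were at 0 throughout, and the list, led by LMO2, took 0.00263% to 0.00584% in siblings, 0.00104% to 0.00287% in mafba, 0% to 0.00887% in mafbb and 0.00136% to 0.00406% in DMut. Of 7 neuronal IDs, gap43 and map2 were at 0, and the list, led by tubb5, took 0% in siblings and at most 0.0101% elsewhere, in mafba. ELAVL4 was counted in the mafba tubes only, at 32.1, 14.3 and 3.55 CPM, and tubb5 was at 62.8 CPM in mafba replicate 1.

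The genes whose levels followed the summed helicase level most closely over the 12 tubes were found by Pearson correlation of log2(CPM + 1). Among the 8 highest were RCC2 (r = 0.914), HSP90B1 (0.892), NUDC (0.89), h3f3d (0.88), srrm1 (0.868), tfr1b (0.858) and RPA1 (0.857). They were picked from 7128 named genes over tubes that share genotype and depth, and are a description only. RCC2, a chromosome-associated regulator of cell division, was at 103 ± 40.4 CPM in mafba, 106 ± 65.3 in DMut, 36.9 ± 21.3 in siblings and 23.6 ± 38.9 in mafbb. RPA1, which coats the single strands that the helicase exposes, was at 113 ± 55.4, 121 ± 81.3, 42.4 ± 45.6 and 24.5 ± 42.4 CPM in the same order. Without mafbb replicate 2, the tube with 1 helicase count, r was 0.894 for h3f3d and 0.878 for RPA1, but 0.561 for srrm1 and 0.638 for NUDC.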

How the data were processed

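Poly(A) RNA of 12 tubes, 3 for each of 4 genotypes, was measured by Smart-seq2. The deposited table holds raw counts per Ensembl gene ID, which the authors did not normalize. Per the submitters' processing notes, Trim Galore, STAR and the build GRCz11 were used. For the counting tool, the annotation and the use of strand, the sources used here state nothing. Of 35117 gene IDs, 27000 matched a symbol, and 92 spike-in sequences were left out of the fit.

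edgeR 4.0.16 in R 4.3.3 (filterByExpr, minimum count 10, TMM, quasi-likelihood test with robust estimation) was fitted to all 12 tubes with genotype as the only term, and p was adjusted over 9519 genes by Benjamini-Hochberg, with a threshold of 0.05. The common dispersion was 3.999. The SE of a log2 fold change is its absolute value divided by the square root of the F statistic of the quasi-likelihood test. It is approximate, and for groups at 0 counts it depends on the prior count of the fit. CPM uses the TMM-scaled library size, and floors (3 counts over a group) cover counting error only, since the reads carry no molecular identifiers. DESeq2 1.42.0, limma 3.58.1 voom with sample weights, other scalings and filters, a replicate block and left-out tubes were alternatives. DESeq2 was fitted to all genes with a count and not only to those that passed the filter. As DESeq2 gave no result for MCM3 in DMut or mafba against siblings, its ranges there cover 23 alternatives. The ranges of MCM3 in the other contrasts also lack an alternative, so a missing DESeq2 call for MCM3 is no negative result there. The scripts were tested on simulated data.

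All members were named. From each replication or cell cycle list the 4 genes with the smallest p in DMut against siblings were named, then the most abundant gene of each marker list and the 8 genes most like the helicase, 1 of which is not reported here. Genes named only for how they passed the low-count filter fall outside this rule. The members and lists were chosen with earlier results of these data known.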

Additional observations from a re-analysis of the deposited data

How the results depend on the processing

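Against siblings, 1 helicase gene was called in DMut, and 2 were with spike-in scaling, without a filter, by limma voom and with mafba replicate 2 and mafbb replicate 3 left out together. The count was 0 with robust=FALSE and with only the groups compared, and 0 to 2 over tubes left out in turn. In mafba the count of 0 became 1 with spike-in scaling, the replicate block, DESeq2, only the groups compared or those tubes left out together, and 2 without a filter or by limma voom, with 0 to 1 over single tubes left out. In mafbb it became 1 with spike-in scaling (MCM2, adjusted p = 0.0438). In DMut against mafbb it was 2 in place of 1 with spike-in scaling and DESeq2, and 1 to 2 over single tubes. Over all genes, spike-in scaling called 3 in mafba and 70 in mafbb against siblings, and 366 in DMut against mafbb. DESeq2 called 1764 in DMut against mafbb, where the main fit called 69. In mafba the replicate block called 11 genes, DESeq2 583, only the groups compared 3 and those tubes left out together 5. The fit without a filter called 12 there and limma voom 37. The 6 tubes with at least 4 members became 9 at 1 count, with sibling replicate 1 and mafbb replicates 1 and 3 added, 8 at 10 counts, with sibling replicate 1 and mafbb replicate 1 added, and 5 at 50 CPM.

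Signs turned for values that were not called. In mafbb against siblings MCM6 was 0.075 under TMMwsp scaling and 0.20 with the pair of tubes left out, MCM3 was -1.35 with that pair left out, and MCM7 was -0.42 with spike-in scaling. Over single tubes left out MCM3 ran from -1.35 to 9.18, MCM4 from -2.34 to 0.79, MCM5 from -8.32 to 0.97, MCM6 from -8.91 to 0.20 and MCM7 from -10.6 to 11.19. In mafba against siblings MCM4 ran from -0.29 to 1.78. In DMut against mafba MCM5 was 1.38 by limma voom, and MCM6 ran from -1.14 to 0.16. The cause was not tested.

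Over all genes, DMut against siblings gave 68 calls, 878 by DESeq2, 370 by limma voom, 115 without a filter, 123 with the replicate block and 36 with robust=FALSE. Spike-in scaling gave 47 calls there, only the groups compared 93, and mafba replicate 2 and mafbb replicate 3 left out together 86. Spike-in scaling moved the median log2 fold change of all genes by 0.41 in DMut, 0.48 in mafba and -1.38 in mafbb against siblings, and by 1.78 in DMut against mafbb. No pairing by replicate number was seen, though with 3 cells a tube such a check could miss one. The correlation of deviations was -0.025 to 0.0353 over 18 pairs of the same number, 0 of them above 0.1. In other pairs it was -0.0298 to 0.0297, and 5 of 12 tubes correlated best with their own number. With 3 cells a tube and a common dispersion of 3.999, differences of several fold were not detectable for genes with errors as large as those of the members. Some abundant genes had smaller errors, such as CEBPB with an SE of 0.32 in DMut against siblings.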
